A study of Mus musculus with 30 samples.

Results

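Chemokines are small secreted proteins that steer the movement of leukocytes, and their receptors are G protein-coupled receptors of the cells that follow them. The transcripts described here were every row of the deposited table named as a Ccl, Cxcl or Xcl ligand or as a Ccr, Cxcr, Xcr or Ackr receptor, together with Cx3cl1, Pf4, Ppbp and Ccrl2, and without Ccr2. The rule used names and no measured value, and found 41 transcripts of 39 genes among 14225 transcripts. Cxcl12 and Ccrl2 each had 2 transcripts. Of these 41, 28 reached a mean of 10 TPM (a share of a library that is scaled by transcript length) in at least 1 group, and Xcr1 and Ackr4 stayed under a mean of 1 TPM over the 30 libraries. Of 63 genes listed by role, 24 had no row and were not analysed here.

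Microglia were isolated from the whole brain of C57BL/6J offspring with magnetic CD11B beads, and 30 RNA libraries fell into 10 groups of 3. The dams had received saline (Saline) or, early in gestation, poly(I:C), an RNA that imitates a viral infection (maternal immune activation, MIA). Offspring of both kinds were taken at E17, P7, P20 and P60. P60 offspring had eaten control chow throughout (CTRL), or had after weaning received chow with PLX5622, which blocks the receptor CSF1R that microglia need and so depletes them, before a return to control chow let the cells come back (MG-REP). Each E17 library came from 1 litter, each P7 library from 3 pooled brains and each P20 or P60 library from 1 brain, of males and females. The labels give no litter or batch, and the p-values measure the spread between these libraries.

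As background, ligands of the CC class with adjacent cysteines, such as Ccl2, Ccl3, Ccl4 and Ccl5, mainly attract monocytes, T cells and dendritic cells. Cxcl1, Cxcl2 and Cxcl3 attract neutrophils through CXCR2, and Cxcl9 and Cxcl10 attract activated T cells and NK cells through CXCR3. Microglia are known sources of CC and CXC ligands on inflammatory stimulation, and they carry CX3CR1, the receptor of the neuronal ligand Cx3cl1. Atypical receptors bind chemokines without G protein signalling and set how much ligand remains.

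Between 7950000 and 12800000 reads per library were counted, as estimated from the steps between low TPM, so that 1 read was worth 0.211 to 0.355 TPM on 1 kb of transcript. Libraries of a group correlated at 0.956 to 0.993 over all transcripts, and no pair was identical. All 8 microglial markers, P2ry12 and Tmem119 among them, were present in every group. Several libraries stood apart for these transcripts. The summed TPM of 12 markers of monocytes and neutrophils was 95.2, 5487 and 379.7 in Saline + MG-REP, so that library 2 held most of them. E17 MIA libraries 1 and 3 had low Ccl3 and Ccl4, and P20 Saline library 3 had high Ccl12, Cxcl10 and Ccl3. Xist, the RNA of the inactive X chromosome, was at 124, 0.29 and 0.28 TPM in Saline + CTRL and 139.9, 0.14 and 0.2 TPM in MIA + CTRL. All 6 MG-REP libraries had 159 to 174 TPM of Xist, as had P20 libraries with 172 to 193 TPM, so sex composition moved with the comparisons of CTRL with MG-REP and of P20 with P60. Its part in the results was not tested apart from a fit with Xist as a covariate.

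The 41 transcripts together took between 4414 and 16388 TPM of a library. Their summed level was 8529.8 ± 557 TPM (SD, n = 3) in E17 Saline and 6310.3 ± 2471 TPM in E17 MIA. It was 9744 ± 1537 TPM in P7 Saline and 7857 ± 1849 TPM in P7 MIA, and 10187 ± 3261 TPM in P20 Saline and 9770.3 ± 37.2 TPM in P20 MIA. At P60 it was 7073 ± 848 TPM in Saline + CTRL and 5382 ± 1028 TPM in MIA + CTRL. Saline + MG-REP had the most, with 16388, 14033 and 12656 TPM, and MIA + MG-REP had 6612, 7775 and 6492 TPM. The groups Saline + MG-REP and Saline + CTRL did not overlap, and in MIA offspring the lowest MG-REP library, at 6492 TPM, lay just above the highest CTRL library, at 6462 TPM. Ccl3 and Ccl4 made up between 40.4% of the sum in Saline + MG-REP and 69.4% in P20 MIA.

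**Figure D1:**
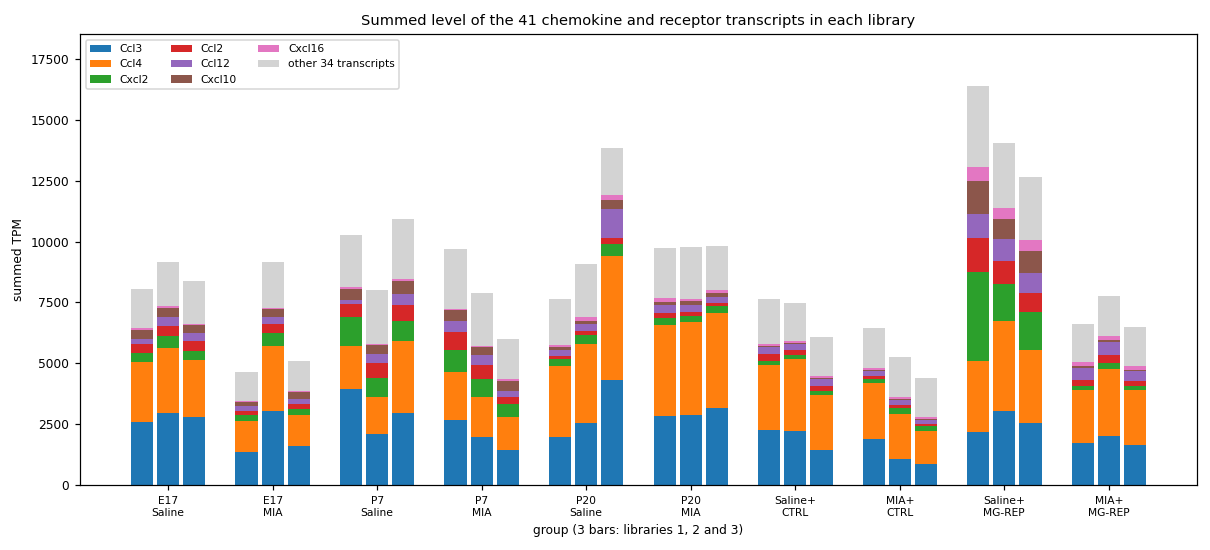
Summed TPM of the 41 transcripts in each of the 30 libraries (y axis, stacked bars from 0), by group (x axis, 3 bars for libraries 1, 2 and 3), with 7 abundant transcripts in colour and the other 34 in grey. Saline + MG-REP libraries reach 12656 to 16388 TPM, with wide shares of Cxcl2, Ccl2, Ccl12 and Cxcl10, and P20 Saline library 3 stands above the other P20 Saline libraries.

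Groups were compared on log2(TPM + 1) by the moderated test of limma in 1 fit of all 30 libraries, two-sided, with p-values adjusted by the Benjamini-Hochberg method over all 14225 transcripts and a threshold of 0.05. A fold change on this scale understates the change of transcripts near 0 TPM. "Rose" and "fell" below are used of transcripts past this threshold. The step from P7 to P20 had the most calls. From E17 to P7 in Saline offspring, 8 of 41 rose and 2 fell, where 3.09% of all transcripts rose and 1.23% fell. From P7 to P20, 12 rose and 11 fell, against 16.1% and 20.1% of all transcripts. From P20 to P60 on control chow, 0 rose and 4 fell, against 1.02% and 2.49%.

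MIA offspring gave the following counts. From E17 to P7, 9 rose and 1 fell, against 1.59% and 0.801% of all transcripts. From P7 to P20, 13 rose and 12 fell, against 13.1% and 22.5%. From P20 to P60, 0 rose and 6 fell, against 1.03% and 1.57%. Between P7 and P20, 12 transcripts rose in both kinds of offspring, which is 12 of 12 in Saline and 12 of 13 in MIA offspring, and 10 fell in both, 10 of 11 and 10 of 12. Shared calls were not counted over all transcripts, of which 0% differed past the threshold between MIA and Saline offspring at this step. The median log2 change of the 41 transcripts from P7 to P20 was 0.22 in Saline and 0.02 in MIA offspring, beside -0.02 and -0.09 over all transcripts. Microglial markers moved with this step, with 6 of 8 higher in Saline offspring, against 16.1% of all transcripts. Fewer cells of a type and less RNA per cell cannot be told apart in such libraries.

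In adult Saline offspring, repopulated microglia differed from resident ones in 23 of these 41 transcripts. With MG-REP, 17 rose and 6 fell against Saline + CTRL, where 11.9% of all transcripts rose and 14.9% fell. The groups of libraries did not overlap for 21 of the 23, a count that was not made over all transcripts. The median change of the 41 was 0.41 on the log2 scale, and that of all transcripts was -0.14. In MIA offspring 1 rose and 1 fell with MG-REP, against 0.387% and 0.169% of all transcripts, with medians of -0.04 and -0.08. The difference between both effects of MG-REP, MIA minus Saline, was positive for 2 and negative for 9 of the 41, against 4.42% and 6.09% of all transcripts. Of these 11 differences, 9 kept their call whichever library was left out, as did 20 of the 23 changes in Saline offspring. Cxcr3, Ccl7 and Ccl5 are the 3 that did not.

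**Figure D2:**
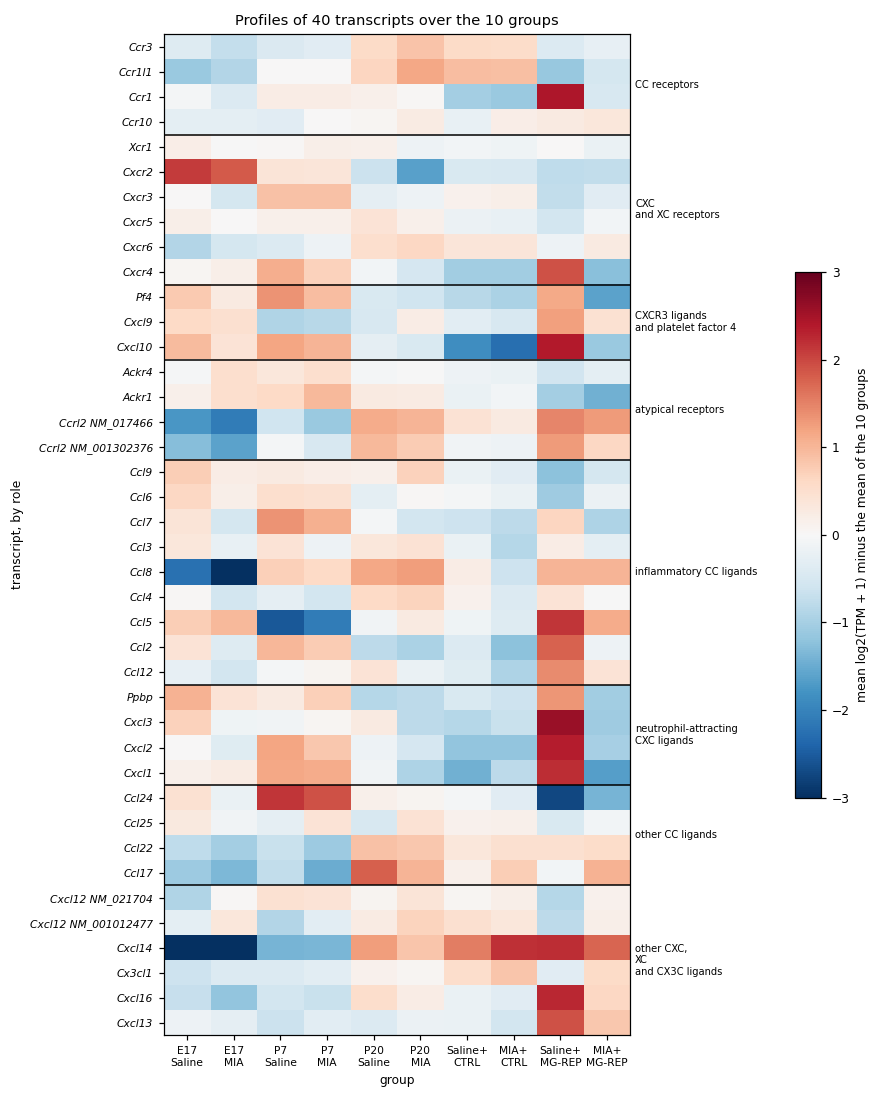
Mean log2(TPM + 1) of 40 of the transcripts in each of the 10 groups (columns) minus its mean over the groups, coloured from blue (lower) to red (higher, scale capped at 3), with rows ordered by role. By mean TPM, Saline + MG-REP is the highest group for 15 transcripts, among them all of Cxcl1, Cxcl2, Cxcl3 and Ppbp.

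Inflammatory CC ligands were the most abundant members, led by Ccl4 and by Ccl3, a ligand of CCR1. In Saline offspring Ccl3 had 2612, 2971 and 2806 TPM at E17, 3948, 2105 and 2981 TPM at P7 and 1990.0, 2572 and 4304 TPM at P20. MIA offspring had 1377, 3065 and 1590.0 TPM at E17, 2674, 1970.2 and 1455 TPM at P7 and 2853, 2897 and 3171 TPM at P20 of Ccl3. At P60 Ccl3 stood at 2251, 2212 and 1457 TPM in Saline + CTRL, 1889, 1096 and 885 TPM in MIA + CTRL, 2178, 3030.1 and 2572 TPM in Saline + MG-REP and 1715, 2016 and 1655 TPM in MIA + MG-REP. Ccl3 passed the threshold once, from P20 to P60 in MIA offspring (log2 fold change -1.28, SE 0.31, adjusted p = 0.0281). The 3 P60 libraries of that comparison lay below the 3 P20 libraries, and the call was lost with a Xist covariate and without 5 of the 6 libraries in turn.

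Ccl4 had 2464, 2655 and 2323 TPM at E17, 1766, 1518 and 2955 TPM at P7 and 2920.1, 3242 and 5091 TPM at P20 in Saline offspring. Its level in MIA offspring was 1264, 2662 and 1298 TPM at E17, 1955, 1634 and 1361 TPM at P7 and 3736, 3793 and 3892 TPM at P20. At P60 there were 2699.6, 2953 and 2231 TPM in Saline + CTRL, 2327, 1839.6 and 1354 TPM in MIA + CTRL, 2928, 3724 and 2969.5 TPM in Saline + MG-REP and 2178, 2769 and 2237 TPM in MIA + MG-REP. Ccl4 rose from P7 to P20 by 0.87 in Saline, where P7 and P20 libraries overlapped, and by 1.22 in MIA offspring on the log2 scale, where they did not. The rise in Saline offspring was 0.63 to 0.78 and not called without P7 library 1, P7 library 2 or P20 library 3 (adjusted p of 0.0551 to 0.0882). It fell from P20 to P60 in MIA offspring (log2 fold change -1.08, SE 0.26, adjusted p = 0.0282), a call lost like that of Ccl3. Neither Ccl3 nor Ccl4 passed the threshold with MG-REP, where the 95% interval of the log2 change in Saline offspring was -0.23 to 1.05 for Ccl3 and -0.26 to 0.83 for Ccl4. The ratio of Ccl4 to Ccl3 TPM was 0.943, 0.894 and 0.828 in the 3 libraries of E17 Saline and 0.447, 0.721 and 0.991 in P7 Saline. It was 1.47, 1.26 and 1.18 in P20 Saline and 1.20, 1.34 and 1.53 in Saline + CTRL. Ccl4 was thus the lower of both in all 12 libraries of E17 and P7 and the higher in all 18 libraries of P20 and P60.

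Ccl2, Ccl7, Ccl12 and Ccl8 lie side by side on chromosome 11 (82035577 to 82116799, GRCm38.p6). Ccl2, Ccl7 and Ccl12 are ligands of the monocyte receptor CCR2. In Saline offspring Ccl2 had 350.2, 398 and 433 TPM at E17, 501, 615 and 652 TPM at P7 and 144, 155 and 225 TPM at P20. MIA offspring had 187, 340.4 and 182 TPM at E17, 721, 573 and 301 TPM at P7 and 181, 158 and 124 TPM at P20 of Ccl2. All P20 libraries lay below all P7 libraries, and Ccl2 fell in Saline (log2 fold change -1.77, SE 0.29, adjusted p = 5.46e-05) and by 1.71 on the log2 scale in MIA offspring. At P60 Ccl2 had 269, 222 and 186 TPM in Saline + CTRL, 157, 145 and 86.1 TPM in MIA + CTRL, 1385, 940.0 and 771 TPM in Saline + MG-REP and 242, 325 and 234 TPM in MIA + MG-REP. Repopulated Saline microglia held 4.57 times the mean TPM of Ccl2 in resident ones, a rise of 2.16 on the log2 scale. In MIA offspring the mean was 2.07 times higher, with no overlap between groups, but the adjusted p was 0.132.

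Ccl12 was at 269, 252 and 269.7 TPM in Saline + CTRL and at 981, 886 and 852 TPM in Saline + MG-REP, a rise of 1.78 on the log2 scale. MIA + CTRL libraries had 170.5, 205 and 162 TPM and MIA + MG-REP libraries 462, 518 and 382 TPM of Ccl12, which did not overlap, with an adjusted p of 0.186. Ccl12 had 210.1, 367 and 297 TPM at E17, 200.2, 376 and 449.8 TPM at P7 and 249, 301 and 1227 TPM at P20 in Saline and 179.9, 293 and 232 TPM at E17, 461, 395 and 254 TPM at P7 and 350.0, 305 and 237 TPM at P20 in MIA offspring. It passed the threshold at no age step, and P20 Saline library 3 held over 4 times the TPM of the other P20 Saline libraries. Ccl7 had 114, 124 and 144 TPM at E17, 191, 291 and 271 TPM at P7 and 63.8, 124 and 100.2 TPM at P20 in Saline and 67.5, 118 and 36.01 TPM at E17, 342, 235 and 102 TPM at P7 and 78.4, 76.8 and 45.8 TPM at P20 in MIA offspring, and fell from P7 to P20 by 1.40 and 1.61 on the log2 scale, the former not without P20 Saline library 1 (adjusted p = 0.0584). In MIA offspring Ccl7 had risen from E17 to P7 (log2 fold change 1.59, SE 0.41, adjusted p = 0.0352), and so had Ccl2 (log2 fold change 1.14, SE 0.29, adjusted p = 0.0373). Both rises were lost without E17 library 1, E17 library 3, P7 library 1 or P7 library 2 (adjusted p of 0.103 to 0.225 for Ccl7 and 0.148 to 0.227 for Ccl2). At P60 Ccl7 had 94.98, 58.9 and 42.3 TPM in Saline + CTRL, 66.2, 52.8 and 47.4 TPM in MIA + CTRL, 239.6, 130.5 and 112 TPM in Saline + MG-REP and 42.03, 62.2 and 48.6 TPM in MIA + MG-REP. Its rise of 1.28 in repopulated Saline microglia was 0.95 and not past the threshold without Saline + MG-REP library 1, the highest (adjusted p = 0.153). It was 1.01 without Saline + CTRL library 3 (adjusted p = 0.102) and 1.25 without Saline + CTRL library 2 (adjusted p = 0.055). A Xist covariate also ended the call.

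Ccl8, which attracts monocytes and T cells, was almost undetected in embryonic microglia. In Saline offspring Ccl8 had 2.07, 1.71 and 0.44 TPM at E17, 17.97, 18.5 and 13.5 TPM at P7 and 35.1, 22.9 and 14.6 TPM at P20. MIA offspring had 0, 0.91 and 0 TPM at E17, 18.03, 24.8 and 7.63 TPM at P7 and 28.7, 23.1 and 21.9 TPM at P20 of Ccl8. A single read was worth 0.413 to 0.695 TPM of this short transcript, so the E17 values rest on a few reads. Ccl8 rose from E17 to P7 in Saline (log2 fold change 2.94, SE 0.37, adjusted p = 4.17e-05) and in MIA offspring (log2 fold change 3.71, SE 0.37, adjusted p = 1.78e-06), with no overlap of libraries in either. The rise in MIA offspring was lost in a limma fit of only the groups compared (adjusted p = 0.0983). At P60 there were 16.3, 7 and 12.8 TPM of Ccl8 in Saline + CTRL, 5.15, 6.52 and 6.4 TPM in MIA + CTRL, 18.7, 23.97 and 19.8 TPM in Saline + MG-REP and 15.9, 26.4 and 21.4 TPM in MIA + MG-REP. It fell from P20 to P60 in MIA offspring (log2 fold change -1.86, SE 0.37, adjusted p = 0.00799), a call lost with a Xist covariate and with a pseudocount of 0.1. Ccl8 was the 1 member that rose with MG-REP in MIA offspring (log2 fold change 1.64, SE 0.37, adjusted p = 0.0406), and this call was lost whichever of the 6 libraries was left out, at log2 changes of 1.48 to 1.82 and adjusted p of 0.0701 to 0.273.

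Ccl6 and Ccl9, ligands of CCR1, lie next to each other further along chromosome 11, in a run with Ccl5, Ccl3 and Ccl4 (83525778 to 83664683). Ccl6 had 281, 324 and 304 TPM at E17, 230.2, 294 and 322 TPM at P7 and 135, 215 and 141 TPM at P20 in Saline offspring. Its level in MIA offspring was 175, 316 and 206 TPM at E17, 325, 326 and 192 TPM at P7 and 184, 215 and 215 TPM at P20. It fell from P7 to P20 in Saline offspring by 0.80, a call lost without P20 library 1 (adjusted p = 0.0545). At P60 Ccl6 had 225, 138 and 216 TPM in Saline + CTRL, 143, 181 and 200.01 TPM in MIA + CTRL, 77.6, 121 and 85.6 TPM in Saline + MG-REP and 173, 179.9 and 172 TPM in MIA + MG-REP. Ccl6 fell in repopulated Saline microglia by 1.01 on the log2 scale, with all 3 libraries below those of Saline + CTRL. Ccl9 had 221, 225 and 204 TPM at E17, 117, 168 and 194 TPM at P7 and 152, 202 and 97.2 TPM at P20 in Saline and 114, 209.8 and 145 TPM at E17, 189, 170.1 and 99.9 TPM at P7 and 176, 218 and 245 TPM at P20 in MIA offspring. At P60 Ccl9 had 121, 87.3 and 136 TPM in Saline + CTRL, 86.9, 108 and 113 TPM in MIA + CTRL, 52.1, 54.6 and 57.1 TPM in Saline + MG-REP and 82.5, 97.5 and 90.6 TPM in MIA + MG-REP. It fell with MG-REP in Saline offspring by 1.04, and from P20 to P60 in MIA offspring (log2 fold change -1.04, SE 0.25, adjusted p = 0.0271), the latter lost with a Xist covariate and without 4 of the 6 libraries.

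Ccl5, a T cell and monocyte attractant that lymphocytes also make, fell after E17, where most of the called members rose. Saline offspring had 13.1, 34.2 and 92.8 TPM at E17, 1.48, 4 and 3.04 TPM at P7 and 13.6, 21.6 and 23.2 TPM at P20 of Ccl5. MIA offspring had 26.5, 40.9 and 63.9 TPM at E17, 3.37, 3.55 and 5.34 TPM at P7 and 36.5, 23.3 and 18.3 TPM at P20. Ccl5 fell from E17 to P7 in Saline (log2 fold change -3.29, SE 0.70, adjusted p = 0.00829) and MIA offspring (log2 fold change -3.07, SE 0.70, adjusted p = 0.0182), and rose from P7 to P20 in both (log2 fold change 2.44, SE 0.70, adjusted p = 0.00888 in Saline and log2 fold change 2.38, SE 0.70, adjusted p = 0.0104 in MIA offspring). The fall was lost in Saline offspring without E17 library 3 (adjusted p = 0.0678) or P7 library 1 (adjusted p = 0.0514), and in MIA offspring without E17 library 3, P7 library 1 or P7 library 2 (adjusted p of 0.0698 to 0.0779). At P60 Ccl5 had 36.4, 8.81 and 20.1 TPM in Saline + CTRL, 10.5, 15.2 and 23.3 TPM in MIA + CTRL, 16.7, 208 and 226 TPM in Saline + MG-REP and 44.5, 52.1 and 40.2 TPM in MIA + MG-REP. Libraries 2 and 3 of Saline + MG-REP were far above library 1, which lay within the range of Saline + CTRL. The rise of 2.25 in repopulated Saline microglia passed the threshold with all libraries and not without Saline + MG-REP library 2 (log2 change 1.68, adjusted p = 0.11), without library 3 (1.62, adjusted p = 0.116) or without Saline + CTRL library 2 (1.74, adjusted p = 0.109). It was also lost with a Xist covariate. The 5 measured markers of NK and T cells summed to 2.66, 10.1 and 2.23 TPM in Saline + MG-REP and 26.3, 6.99 and 23.9 TPM in Saline + CTRL. Of the 5, 3 fell with MG-REP in Saline offspring, against 14.9% of all transcripts. The sum was 8.83, 13.95 and 21.43 TPM in MIA + CTRL and 13.23, 20.33 and 9.41 TPM in MIA + MG-REP. It had the library order of Ccl5 in Saline + CTRL, MIA + CTRL and MIA + MG-REP, and not in Saline + MG-REP. The part of these cells in the level of Ccl5 was not tested. Cd3d, Cd3e and Cd3g had no row.

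Other CC ligands were scarcer. Ccl24 (eotaxin-2, a ligand of CCR3 that attracts eosinophils) had its peak at P7. In Saline offspring Ccl24 had 31.1, 38.3 and 41.7 TPM at E17, 87.7, 114 and 173 TPM at P7 and 22.9, 35.7 and 31.9 TPM at P20. MIA offspring had 22.8, 35.4 and 15.2 TPM at E17, 137, 101 and 76.95 TPM at P7 and 26.8, 30.7 and 26.3 TPM at P20 of Ccl24. It rose from E17 to P7 in Saline (log2 fold change 1.68, SE 0.30, adjusted p = 0.00203) and MIA offspring (log2 fold change 2.10, SE 0.30, adjusted p = 2.24e-04) and fell from P7 to P20 in both (log2 fold change -1.98, SE 0.30, adjusted p = 2.11e-05 and log2 fold change -1.83, SE 0.30, adjusted p = 4.83e-05), with P7 libraries above all others. All 4 of these calls held whichever library was left out, and the rise in MIA offspring was lost in a fit of only the groups compared (adjusted p = 0.182). At P60 Ccl24 had 37.2, 25.8 and 17.2 TPM in Saline + CTRL, 27.5, 17.02 and 18.9 TPM in MIA + CTRL, 2.78, 2.53 and 4.25 TPM in Saline + MG-REP and 7.33, 12.2 and 9.22 TPM in MIA + MG-REP. Ccl24 fell with MG-REP in Saline offspring (log2 fold change -2.68, SE 0.30, adjusted p = 2.68e-07), to 1 part in 8.38 of its mean TPM. In MIA offspring the 3 repopulated libraries were also below the 3 resident ones, at a log2 change of -1.06 and an adjusted p of 0.169.
Border macrophages sit in the meninges and around vessels, and marker levels of these cells are given beside Ccl24. Their 8 measured markers summed to 980.3, 1333 and 1088 TPM in E17 Saline, 1784, 1869 and 2124 TPM in P7 Saline and 1139, 1248 and 1075 TPM in P20 Saline, and 4 of the 8 rose from E17 to P7. Of all transcripts 3.09% rose at that step in Saline offspring. At P60 the same sum was 975, 772 and 854 TPM in Saline + CTRL and 713, 538 and 569 TPM in Saline + MG-REP, where 4 of 8 fell, against 14.9% of all transcripts. It was 713, 776 and 807 TPM in MIA + CTRL and 568, 697 and 609 TPM in MIA + MG-REP, where 0 of 8 passed the threshold. The sums of both MG-REP groups overlapped, while Ccl24 was higher in all MIA + MG-REP libraries than in those of Saline + MG-REP. The part of these cells in the levels of Ccl24 was not tested.

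Ccl17 and Ccl22, the ligands of CCR4, lie on either side of Cx3cl1 on chromosome 8. Ccl17 had 2.06, 0 and 0.87 TPM at E17, 4.08, 1.38 and 0 TPM at P7 and 7.96, 8.69 and 26.2 TPM at P20 in Saline and 2.32, 0 and 0 TPM at E17, 0.5, 0 and 0.69 TPM at P7 and 8.67, 4.81 and 7.27 TPM at P20 in MIA offspring. At P60 Ccl17 stood at 9.84, 2.68 and 0.95 TPM in Saline + CTRL, 7.03, 5.94 and 3.64 TPM in MIA + CTRL, 1.39, 5.3 and 2.13 TPM in Saline + MG-REP and 8.17, 4.76 and 8.49 TPM in MIA + MG-REP. Ccl22 had 3.62, 1.09 and 1.11 TPM at E17, 2.75, 0.78 and 2.55 TPM at P7 and 4.17, 7.09 and 13.6 TPM at P20 in Saline and 1.19, 1.42 and 1.19 TPM at E17, 1.7, 0.89 and 0.98 TPM at P7 and 7.81, 6.23 and 7.15 TPM at P20 in MIA offspring. Both rose from P7 to P20 in Saline offspring (Ccl17, log2 fold change 2.54, SE 0.62, adjusted p = 0.00255) and in MIA offspring (Ccl22, log2 fold change 1.89, SE 0.38, adjusted p = 4.38e-04), and every P20 library lay above every P7 library. P20 Saline library 3 was the highest of all for both. Ccl22 had between 3.09 and 8.89 TPM in the 12 P60 libraries, and neither passed the threshold with MG-REP. Ccl25 had group means of 0.56 to 1.96 TPM and passed it in no comparison.

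**Figure D3:**
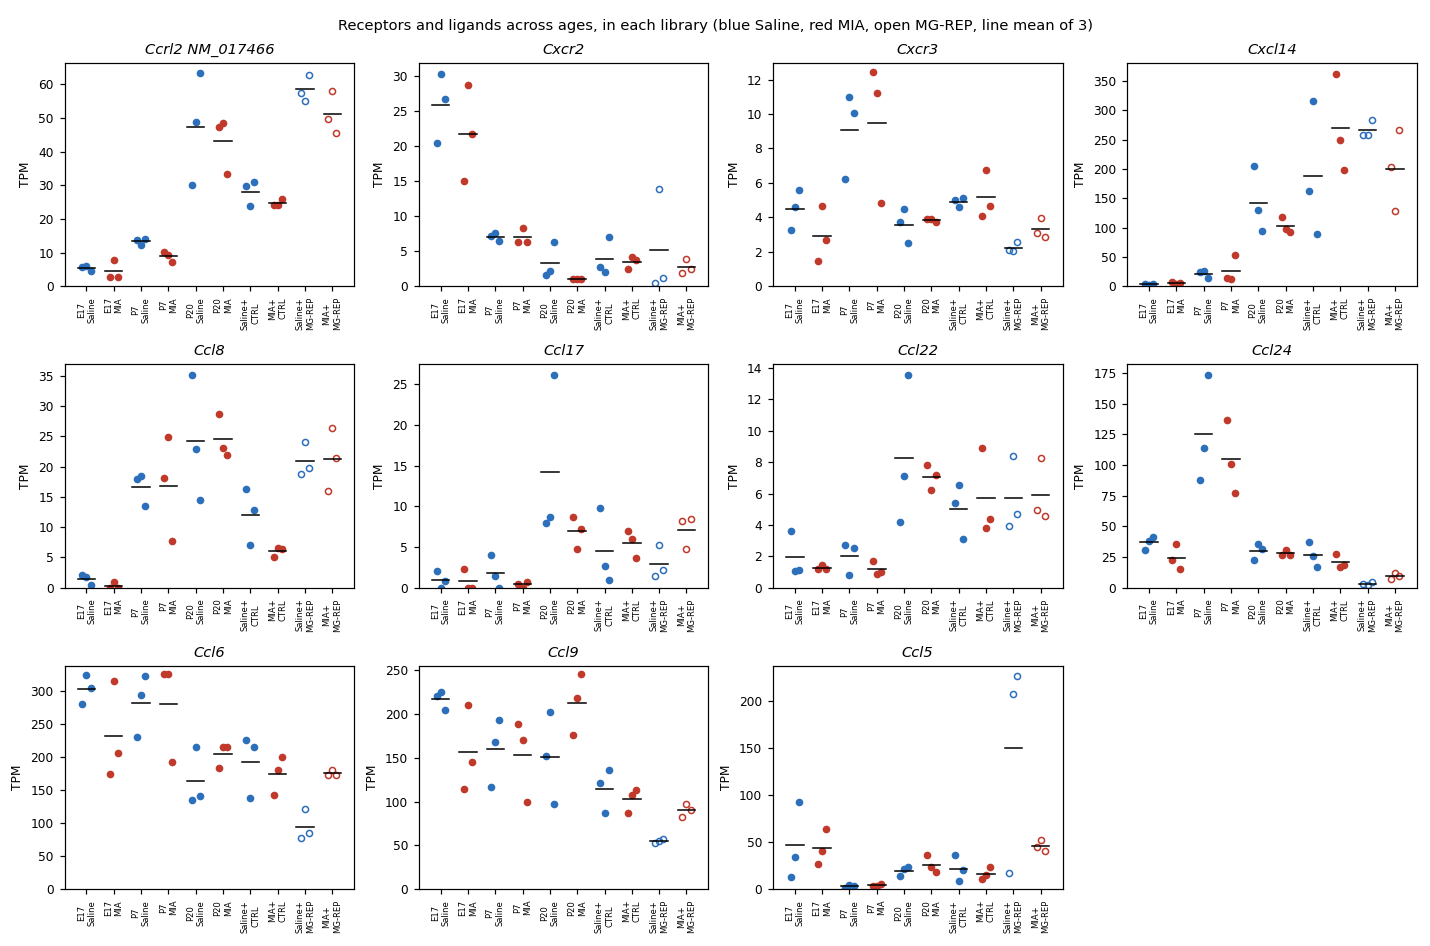
TPM of 11 members (1 panel each, y axis from 0) in the 3 libraries of each of the 10 groups (x axis), with blue for Saline, red for MIA, open symbols for MG-REP and a line for the mean. Cxcl14, Ccrl2 and Ccl17 step up at P20, Ccl8 is near 0 at E17, Ccl24 peaks at P7 and Cxcr2 is highest at E17.

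Of the neutrophil-attracting CXC ligands, all 4 members rose with repopulation in Saline offspring, against 11.9% of all transcripts. Their median log2 change was 3.49. Cxcl1, Cxcl2 and Cxcl3 form a cluster with Ppbp and Pf4 on chromosome 5 (90768518 to 90905938). At P60 Cxcl2 had 167, 163 and 199 TPM in Saline + CTRL and 3665, 1506 and 1565 TPM in Saline + MG-REP, 12.8 times higher in the mean (log2 fold change 3.54, SE 0.33, adjusted p = 1.23e-08). In MIA + CTRL Cxcl2 was at 129.6, 232 and 184 TPM and in MIA + MG-REP at 197, 241 and 171 TPM, which overlapped. The effect of MG-REP on Cxcl2 differed between MIA and Saline offspring (difference -3.36, SE 0.46, adjusted p = 2.62e-05).
Cxcl1 had 23.8, 19.1 and 20.2 TPM in Saline + CTRL and 502, 196 and 209.6 TPM in Saline + MG-REP, 14.4 times higher (log2 fold change 3.65, SE 0.34, adjusted p = 1.26e-08). MIA + CTRL had 20.8, 38.9 and 46.5 TPM and MIA + MG-REP 17.1, 17.8 and 19.4 TPM of Cxcl1. The repopulated libraries were the lower, but not past the threshold (log2 change -0.86, adjusted p = 0.571). The effects of MG-REP on Cxcl1 differed (difference -4.50, SE 0.48, adjusted p = 6.02e-07). Cxcl3 had 0, 0.27 and 0.95 TPM in Saline + CTRL, 0, 1.09 and 0.69 TPM in MIA + CTRL and 0.26, 0.24 and 0 TPM in MIA + MG-REP, values that rest on a few reads. Saline + MG-REP had 26.5, 9.09 and 10.5 TPM of Cxcl3 (log2 fold change 3.44, SE 0.45, adjusted p = 2.75e-06, and for the difference -3.84, SE 0.64, adjusted p = 2.44e-04). Cxcl3 depended on the pseudocount. At 0.1 its log2 rise was 5.34 and its difference -6.32. Ppbp had 0.28, 1.27 and 1.12 TPM in Saline + CTRL, 10.4, 4.78 and 2.78 TPM in Saline + MG-REP, 1.82, 0.51 and 0 TPM in MIA + CTRL and 0.48, 0 and 0.22 TPM in MIA + MG-REP, with a rise of 1.78 in Saline offspring. In each of these 4 the Saline + MG-REP libraries lay above those of the other 3 P60 groups, and library 1 was the highest.

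The sequences of the promoters of members with large changes with MG-REP in Saline offspring are shown, since 5 neighbours on chromosome 5 rose together. Of these neighbours Cxcl1, Cxcl2 and Cxcl3 are shown, and Ppbp and Pf4, with smaller rises, are not. Ccl3 is shown as an abundant member that did not pass the threshold with MG-REP. They are the 250 bases before the start of each gene on its own strand, 5′ to 3′, from RefSeq (GRCm38.p6), and capitals mark matches to 3 motifs searched on both strands: the kappa-B consensus, TGANTCA (AP-1) and GAAA, NN and GAAA joined (the core of the interferon-stimulated response element, ISRE). The windows lie at chr5:90890995-90891244, forward strand (Cxcl1), chr5:90903649-90903898, forward strand (Cxcl2), chr5:90785851-90786100, forward strand (Cxcl3), chr5:92348890-92349139, reverse strand (Cxcl10), chr9:123968693-123968942, reverse strand (Ccr1), chr1:128592300-128592549, reverse strand (Cxcr4) and chr11:83649379-83649628, reverse strand (Ccl3).
Cxcl1: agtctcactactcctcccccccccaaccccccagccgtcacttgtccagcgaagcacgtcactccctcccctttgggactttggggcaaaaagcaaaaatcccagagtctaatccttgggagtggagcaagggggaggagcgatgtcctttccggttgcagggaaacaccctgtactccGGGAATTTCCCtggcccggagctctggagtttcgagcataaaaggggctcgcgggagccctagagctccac
Cxcl2: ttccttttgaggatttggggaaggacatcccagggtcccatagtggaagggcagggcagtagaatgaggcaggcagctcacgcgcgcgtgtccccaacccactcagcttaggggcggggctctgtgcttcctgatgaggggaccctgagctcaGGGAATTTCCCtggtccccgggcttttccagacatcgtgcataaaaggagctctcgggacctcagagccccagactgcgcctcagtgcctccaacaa
Cxcl3: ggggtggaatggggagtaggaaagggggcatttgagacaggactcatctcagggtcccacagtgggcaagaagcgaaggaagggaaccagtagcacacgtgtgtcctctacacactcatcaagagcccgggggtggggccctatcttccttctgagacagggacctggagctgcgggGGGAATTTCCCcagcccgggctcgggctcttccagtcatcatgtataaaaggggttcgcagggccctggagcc
Cxcl10: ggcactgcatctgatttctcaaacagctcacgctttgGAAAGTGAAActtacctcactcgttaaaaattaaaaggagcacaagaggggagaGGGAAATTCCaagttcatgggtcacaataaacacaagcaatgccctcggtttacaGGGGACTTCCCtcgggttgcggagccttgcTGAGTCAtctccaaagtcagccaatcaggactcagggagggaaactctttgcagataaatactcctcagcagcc
Ccr1: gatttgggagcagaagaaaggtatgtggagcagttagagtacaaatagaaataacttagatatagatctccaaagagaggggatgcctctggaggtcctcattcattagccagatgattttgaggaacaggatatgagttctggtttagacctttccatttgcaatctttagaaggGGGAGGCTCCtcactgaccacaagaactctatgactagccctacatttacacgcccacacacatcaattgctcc
Cxcr4: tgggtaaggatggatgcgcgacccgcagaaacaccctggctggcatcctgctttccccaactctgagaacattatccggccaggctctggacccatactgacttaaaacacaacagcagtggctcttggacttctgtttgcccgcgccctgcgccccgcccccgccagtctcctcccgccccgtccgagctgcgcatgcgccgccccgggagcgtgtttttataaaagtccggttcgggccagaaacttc
Ccl3: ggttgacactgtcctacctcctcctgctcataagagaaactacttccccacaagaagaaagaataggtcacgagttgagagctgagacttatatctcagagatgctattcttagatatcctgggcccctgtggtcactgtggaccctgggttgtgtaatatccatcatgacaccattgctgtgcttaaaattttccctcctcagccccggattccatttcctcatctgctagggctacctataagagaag
In Cxcl1, Cxcl2 and Cxcl3 a pair of overlapping kappa-B matches, 1 base apart, began 71, 97 and 73 bases before the start. Cxcl10 held 3 kappa-B matches, 2 of which overlap, 1 match to the ISRE core that began 213 bases before the start and 1 to TGANTCA that began 74 bases before it. Ccr1 held 1 kappa-B match that began 74 bases before the start, and no match to the 3 motifs was found in these windows of Cxcr4 and Ccl3. Of the neighbours on chromosome 5 not shown, Ppbp held a match to TGANTCA and not to the kappa-B consensus, and Pf4 held no match. Promoters were found for 30 of the 39 genes, and where a gene had several starts any match was counted. Those without one include Ccl2, Ccl5, Ccl7 and Cxcl16, which rose with MG-REP in Saline offspring, and Ccl24, which fell. The kappa-B consensus was matched in 8 of the 30, against 7.25% of 32851 promoters, and in 6 of the 12 genes that rose with MG-REP in Saline offspring, 2 of the 5 that fell and 0 of the other 13. The percentage is of promoters and not of genes, and no share was counted among all genes that rose or fell. TGANTCA was matched in 4 of the 30 genes and 6.75% of all promoters, and the ISRE core in 2 of the 30 and 2.98%. A match is a description of the letters, not of binding.

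During development Cxcl1, Cxcl2 and Ppbp fell from P7 to P20 in both kinds of offspring, and Cxcl3 did not pass the threshold. In Saline offspring Cxcl2 had 358, 506 and 375 TPM at E17, 1203, 789 and 792 TPM at P7 and 262, 357 and 507 TPM at P20. MIA offspring had 239, 532 and 244 TPM at E17, 918, 769 and 506 TPM at P7 and 281, 262 and 309.6 TPM at P20 of Cxcl2. In Saline offspring Cxcl2 rose from E17 to P7 by 1.15, a call lost without 5 of the 6 libraries in turn (adjusted p of 0.0632 to 0.227). Cxcl2 fell from P7 to P20 by 1.33 in Saline and by 1.32 in MIA offspring on the log2 scale, with no overlap. In Saline offspring Cxcl1 had 95.1, 45.6 and 63.7 TPM at E17, 134, 131 and 134 TPM at P7 and 38.8, 60 and 68.4 TPM at P20, and MIA offspring had 58.1, 59.8 and 98.2 TPM at E17, 125, 89.5 and 191 TPM at P7 and 27.6, 26.7 and 38.6 TPM at P20. Cxcl1 fell from P7 to P20 by 1.28 in Saline and in MIA offspring (log2 fold change -2.04, SE 0.34, adjusted p = 4.87e-05), and again from P20 to P60 in Saline offspring (log2 fold change -1.33, SE 0.34, adjusted p = 0.0288), a call lost with a Xist covariate and without each of 5 of the 6 libraries. Cxcl3 had at most 5.19 TPM before P60, and Ppbp fell from P7 to P20 in both kinds of offspring, from 0.97, 2.18 and 3.41 to 0.29, 1.03 and 0 TPM in Saline and from 4.02, 3.74 and 1.96 to 0.48, 0.25 and 0.69 TPM in MIA offspring. In Saline offspring that fall of Ppbp was lost without 4 of the 6 libraries in turn (adjusted p of 0.0635 to 0.123).

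Both CXCR3 ligands, Cxcl10 and Cxcl9, rose with repopulation in Saline offspring. Cxcl10 had 56.8, 49.5 and 48.1 TPM in Saline + CTRL and 1363, 828 and 886 TPM in Saline + MG-REP, 19.9 times higher (log2 fold change 4.26, SE 0.32, adjusted p = 3.84e-10). In MIA + CTRL there were 49, 37.1 and 33.1 TPM and in MIA + MG-REP 99.7, 103 and 64.8 TPM of Cxcl10, which did not overlap, at a log2 change of 1.13 and an adjusted p of 0.154. The difference between both effects passed the threshold (difference -3.12, SE 0.45, adjusted p = 4.47e-05). Saline offspring had 368, 391 and 341 TPM at E17, 446, 334 and 559.9 TPM at P7 and 93.2, 128 and 333 TPM at P20 of Cxcl10. MIA offspring had 168, 336 and 291 TPM at E17, 452, 341 and 386 TPM at P7 and 138, 135 and 142 TPM at P20. Cxcl10 fell at P20 by 1.46 in Saline and by 1.49 in MIA offspring, and fell further to P60 in both (log2 fold change -1.61, SE 0.32, adjusted p = 0.00603 in Saline and log2 fold change -1.79, SE 0.32, adjusted p = 0.00377 in MIA offspring), so that resident adult microglia had the lowest levels of the series. With a Xist covariate neither fall from P20 to P60 was called. An exon of Cxcl10 overlaps the gene Art3 on the other strand, and the libraries did not keep strand.

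Cxcl9 had 2.15, 1.04 and 0.92 TPM in Saline + CTRL, 0.91, 1.05 and 1.29 TPM in MIA + CTRL, 2.71, 6.93 and 9.61 TPM in Saline + MG-REP and 1.81, 4.05 and 3.26 TPM in MIA + MG-REP, and rose in Saline offspring by 1.55, though not with a Xist covariate. It had 1.53, 3.16 and 6.94 TPM at E17, 0.81, 0.41 and 0.4 TPM at P7 and 0.97, 1.35 and 0.89 TPM at P20 in Saline and 1.64, 2.65 and 5.77 TPM at E17, 0.62, 0.65 and 0.61 TPM at P7 and 4.15, 2.08 and 1.37 TPM at P20 in MIA offspring, with a fall from E17 to P7 in Saline offspring (log2 fold change -1.52, SE 0.39, adjusted p = 0.0252) that was lost without 5 of the 6 libraries in turn (adjusted p of 0.0567 to 0.17). In MIA offspring Cxcl9 rose from P7 to P20 by 1.04, and this call also was lost without 5 of the 6 libraries in turn (adjusted p of 0.0675 to 0.206). Pf4, platelet factor 4, which macrophages of the brain's borders also express, was far more abundant. Saline offspring had 379, 488 and 409 TPM at E17, 710.3, 568 and 610.1 TPM at P7 and 168, 264 and 129 TPM at P20 of Pf4. MIA offspring had 283, 504 and 178 TPM at E17, 677, 594 and 248 TPM at P7 and 162, 178 and 150.4 TPM at P20. Pf4 fell from P7 to P20 in Saline (log2 fold change -1.80, SE 0.34, adjusted p = 2.45e-04) and by 1.50 in MIA offspring. At P60 Pf4 had 156, 133 and 122 TPM in Saline + CTRL, 124, 134 and 121 TPM in MIA + CTRL, 901, 422 and 408 TPM in Saline + MG-REP and 69.6, 92.04 and 79.6 TPM in MIA + MG-REP. It rose in repopulated Saline microglia by 1.97. Its lowest levels of the series were in repopulated MIA microglia, all below those of MIA + CTRL. That change in MIA offspring did not pass the threshold (log2 change -0.65, adjusted p = 0.864). The effects of MG-REP on Pf4 differed between MIA and Saline offspring (difference -2.62, SE 0.48, adjusted p = 6.94e-04). The border macrophage markers summed to 713, 538 and 569 TPM in Saline + MG-REP and 568, 697 and 609 TPM in MIA + MG-REP. With MG-REP in Saline offspring 0 of 8 rose and 4 fell, against 11.9% and 14.9% of all transcripts. The part of these cells in the level of Pf4 was not tested.

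**Figure D4:**
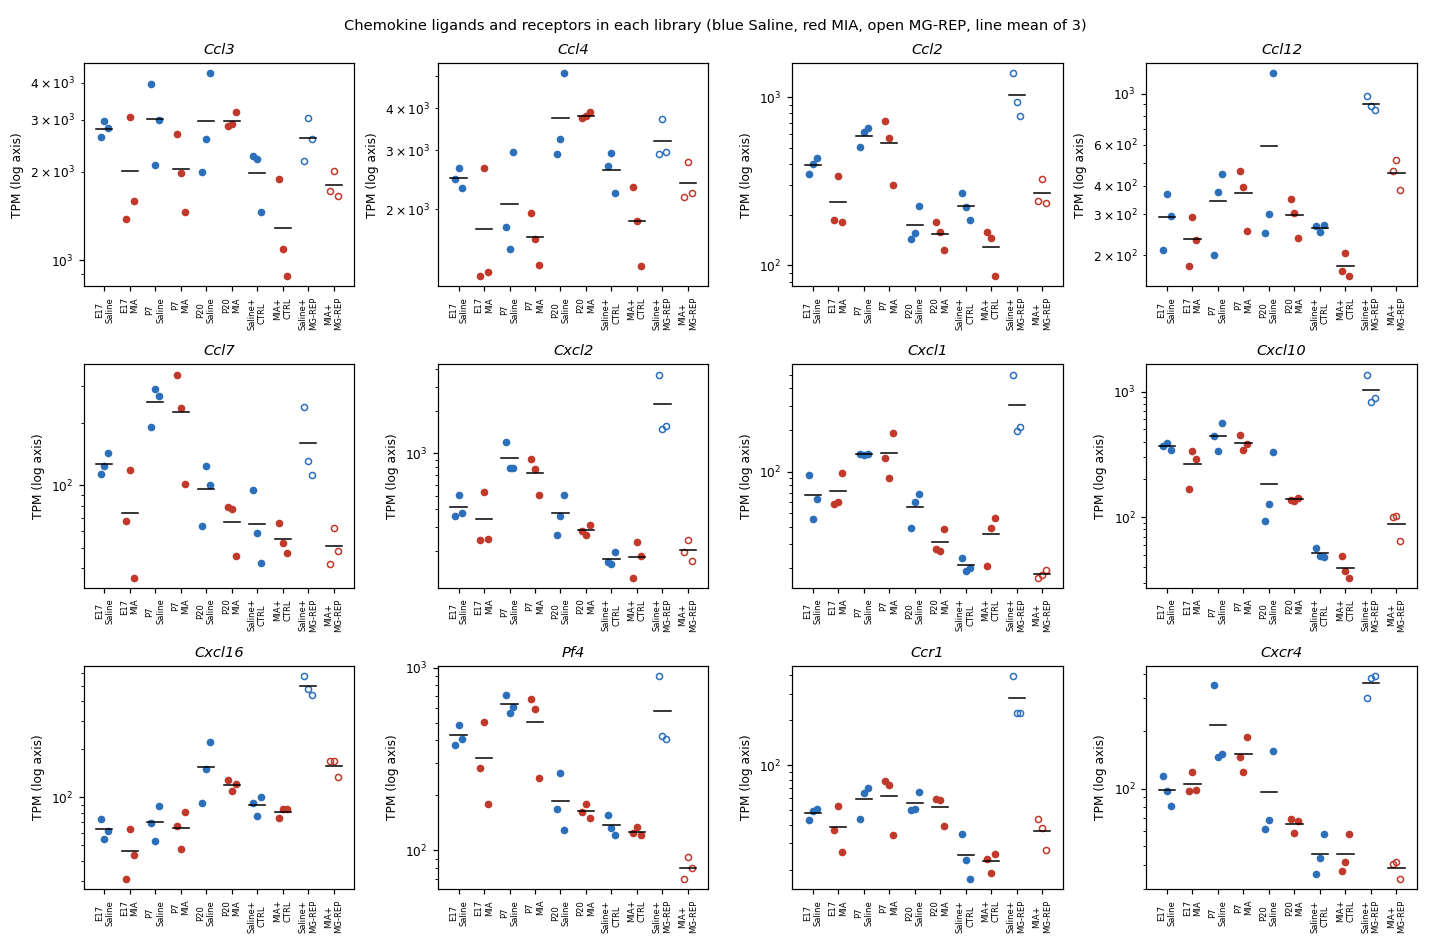
TPM of 12 ligands and receptors (1 panel each, log y axis with its own range) in the 3 libraries of each of the 10 groups (x axis), with blue for Saline, red for MIA, open symbols for MG-REP and a line for the mean. For Ccl2, Cxcl1, Cxcl2, Cxcl10, Cxcl16, Ccr1 and Cxcr4 the open blue symbols lie above both CTRL groups and the open red symbols, and Ccl3 and Ccl4 show no such gap.

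Among the other CXC ligands, Cxcl16, a membrane-bound ligand of CXCR6 that also takes up oxidized lipid, was at 92.03, 75.9 and 100.1 TPM in Saline + CTRL and 573, 473 and 437 TPM in Saline + MG-REP, 5.53 times higher (log2 fold change 2.46, SE 0.26, adjusted p = 8.18e-08). MIA + CTRL had 73.9, 83.97 and 83.8 TPM and MIA + MG-REP 168, 168 and 134 TPM of Cxcl16, again without overlap (log2 change 0.95, adjusted p = 0.124). The rise was larger in Saline offspring, with a difference of -1.51 between both effects and an adjusted p of 0.00743. Through development Cxcl16 had 73.2, 55.1 and 61.6 TPM at E17, 68.9, 53.5 and 88.5 TPM at P7 and 92.3, 151 and 222 TPM at P20 in Saline and 30.8, 63.5 and 43.7 TPM at E17, 65.98, 47.4 and 80.6 TPM at P7 and 129, 109 and 120.2 TPM at P20 in MIA offspring, and rose at P20 by 1.07 and 0.90. Exons of Cxcl16 and Zmynd15 overlap on opposite strands.

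Cxcl14 rose with age at both early steps. Saline offspring had 3.35, 2.39 and 4.04 TPM at E17, 23.98, 26.9 and 14.5 TPM at P7 and 205, 129 and 94.1 TPM at P20 of Cxcl14. MIA offspring had 7.45, 3.58 and 5.17 TPM at E17, 13.5, 13.3 and 53.7 TPM at P7 and 118, 97.1 and 92.3 TPM at P20. Cxcl14 rose from E17 to P7 (log2 fold change 2.39, SE 0.44, adjusted p = 0.0025 in Saline and log2 fold change 1.85, SE 0.44, adjusted p = 0.0231 in MIA offspring) and from P7 to P20 (log2 fold change 2.63, SE 0.44, adjusted p = 6.24e-05 and log2 fold change 2.20, SE 0.44, adjusted p = 4.03e-04). In MIA offspring the first of these rises was lost without E17 library 2, E17 library 3 or P7 library 3 (adjusted p of 0.0615 to 0.122). At P60 Cxcl14 had 162, 315 and 88.4 TPM in Saline + CTRL, 363, 249.6 and 198 TPM in MIA + CTRL, 257, 257 and 283 TPM in Saline + MG-REP and 204, 129 and 266 TPM in MIA + MG-REP. These groups overlapped. Cxcl14 is also made by neurons and astrocytes. Of 10 astrocyte marker transcripts, 4 rose from E17 to P7 and 5 from P7 to P20 in Saline offspring, against 3.09% and 16.1% of all transcripts. In MIA offspring 2 and 4 of them rose, against 1.59% and 13.1%. Neuron markers went the other way, with mean sums of 297, 117 and 93.2 TPM at E17, P7 and P20 in Saline offspring. In MIA offspring these means were 593, 140 and 78.6 TPM. The astrocyte markers are given per library. Their sum in Saline offspring was 323, 187 and 276 TPM at E17, 646, 771 and 508 TPM at P7 and 2201, 1294 and 1243 TPM at P20. MIA offspring had 593, 166 and 438 TPM at E17 and 1159.7, 946 and 1003 TPM at P20. Within P60 Saline + CTRL, Cxcl14 was highest in library 2, where the 7 astrocyte marker genes summed to the most (1262, 2473 and 791 TPM for libraries 1, 2 and 3). In P7 MIA the library with 53.7 TPM of Cxcl14 was again the one with the most astrocyte markers (493, 468 and 1467 TPM). In Saline + MG-REP the markers spread widely, at 509, 1387 and 1729 TPM, where Cxcl14 had 257, 257 and 283 TPM. The part of astrocytes and neurons in the level of Cxcl14 was not tested.

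Cxcl12, the ligand of CXCR4, and Cx3cl1, the ligand of CX3CR1, are mainly products of stromal and endothelial cells and of neurons. The Cxcl12 transcript NM_021704 had 14.6, 12.7 and 9.54 TPM at E17, 29.8, 42.4 and 27.8 TPM at P7 and 36.9, 20.7 and 20.6 TPM at P20 in Saline and 41.7, 11.5 and 28.4 TPM at E17, 29.7, 22.7 and 46.6 TPM at P7 and 30.4, 31.8 and 29.8 TPM at P20 in MIA offspring, with a rise from E17 to P7 in Saline offspring (log2 fold change 1.36, SE 0.39, adjusted p = 0.0468) that was lost whichever of the 6 libraries was left out (adjusted p of 0.052 to 0.17). At P60 NM_021704 of Cxcl12 had 32.96, 23.7 and 18.2 TPM in Saline + CTRL, 45.2, 19.5 and 21.03 TPM in MIA + CTRL, 7.13, 16.7 and 16.5 TPM in Saline + MG-REP and 30.7, 28.7 and 19.5 TPM in MIA + MG-REP. The longer transcript NM_001012477 of Cxcl12 had group means of 16.3 to 45.7 TPM and passed the threshold nowhere, and reads shared by both transcripts cannot be told apart in these counts. Cx3cl1 had 26.9, 10.8 and 18.7 TPM at E17, 26.3, 19.6 and 17.3 TPM at P7 and 33.6, 25.7 and 31.7 TPM at P20 in Saline and 22.3, 10.5 and 37.4 TPM at E17, 16.6, 17.3 and 36.5 TPM at P7 and 35.1, 23.01 and 29.96 TPM at P20 in MIA offspring, and at P60 43.1, 45.7 and 32.6 TPM in Saline + CTRL, 72.9, 42.5 and 39.9 TPM in MIA + CTRL, 10.5, 29.7 and 31.7 TPM in Saline + MG-REP and 39.7, 40.4 and 44.7 TPM in MIA + MG-REP. Cx3cl1 passed it in no comparison.
For both genes Saline + MG-REP library 1 was the lowest of the 12 P60 libraries. The same library had the lowest sum of 9 measured markers of endothelial cells and pericytes (600.4, 1215 and 949.9 TPM in Saline + MG-REP, 2486, 2181 and 1479.9 TPM in Saline + CTRL). This was not particular to endothelial markers. It was also the lowest P60 library for markers of neurons (24.8, 67.3 and 82.4 TPM in Saline + MG-REP) and fibroblasts (19.0, 53.7 and 38.0 TPM). The same held for astrocytes, oligodendrocytes and choroid plexus. The part of these cells was not tested.
Cxcl13, the ligand of the B cell receptor CXCR5, was at 0 TPM in 11 of 30 libraries and had 1.02, 0 and 0.21 TPM in Saline + CTRL and 0.82, 9.37 and 9.66 TPM in Saline + MG-REP. It rose by 2.12 on the log2 scale in Saline offspring, although library 1 of Saline + MG-REP lay within the range of Saline + CTRL. MIA + CTRL had 0, 0 and 0.2 TPM and MIA + MG-REP 0.45, 3.79 and 1.88 TPM of Cxcl13.

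Of the CC receptors, Ccr1, which binds Ccl3, Ccl5, Ccl6 and Ccl9 on monocytes and macrophages, rose with MG-REP in Saline offspring. It had 34.8, 23.3 and 17.3 TPM in Saline + CTRL and 396, 224 and 224 TPM in Saline + MG-REP, 11.2 times higher (log2 fold change 3.43, SE 0.31, adjusted p = 7.32e-09). MIA + CTRL had 23.7, 19.03 and 25.3 TPM and MIA + MG-REP 43.7, 38.2 and 27.1 TPM of Ccr1, and the difference between both effects passed the threshold (difference -2.79, SE 0.43, adjusted p = 1.12e-04). Before P60, Ccr1 had 42.9, 49.4 and 50.9 TPM at E17, 43.7, 65.3 and 70.3 TPM at P7 and 49.8, 50.97 and 66.6 TPM at P20 in Saline and 36.8, 52.99 and 26.4 TPM at E17, 78.1, 73.9 and 34.04 TPM at P7 and 59.3, 58.6 and 39.1 TPM at P20 in MIA offspring. It fell from P20 to P60 in Saline (log2 fold change -1.16, SE 0.31, adjusted p = 0.0365) and in MIA offspring (log2 fold change -1.16, SE 0.31, adjusted p = 0.043), calls that were lost with a Xist covariate, and without 5 of the 6 libraries in turn in Saline and whichever of the 6 was left out in MIA offspring. Ccr1l1, a paralog next to Ccr1, was scarce and moved against it: it had 3.47, 3.96 and 4.83 TPM in Saline + CTRL and 0.49, 0.19 and 0 TPM in Saline + MG-REP, and fell by 2.06. Ccr1l1 was also the 1 member that fell with MG-REP in MIA offspring, from 3.15, 4.19 and 4.64 TPM to 0.9, 0.84 and 0.83 TPM (log2 fold change -1.42, SE 0.24, adjusted p = 0.00211), and this call was lost with a pseudocount of 0.1 and with a Xist covariate.
Ccr1l1 had 0, 0.3 and 0.46 TPM at E17, 0.9, 2.42 and 2.05 TPM at P7 and 3.23, 4.01 and 2.35 TPM at P20 in Saline and 0, 0.96 and 0.59 TPM at E17, 1.93, 1.29 and 1.94 TPM at P7 and 5.38, 5.09 and 4.44 TPM at P20 in MIA offspring, and rose at both steps in both. The rise from P7 to P20 in Saline and that from E17 to P7 in MIA offspring were lost without 3 and 5 of the 6 libraries in turn. Ccr3, the eosinophil receptor of Ccl24, lies beside it and rose from P7 to P20 in both kinds of offspring, from 0.48, 1.01 and 0.99 to 2.98, 3.5 and 1.66 TPM in Saline and from 1.17, 0.99 and 0.65 to 3.36, 3.86 and 3.04 TPM in MIA offspring. In repopulated Saline microglia Ccr3 fell from 2.64, 1.77 and 3.71 TPM to 0.66, 1.66 and 0.42 TPM. Ccr10 had group means of 1.74 to 3.24 TPM and passed the threshold nowhere. Cx3cr1, the microglial receptor of Cx3cl1, which is no member by the rule, had 1539, 1614 and 1580.4 TPM in Saline + MG-REP and 3957, 3374 and 4948 TPM in Saline + CTRL. Ccr2, left out by the rule, had 18.1, 19.6 and 18.7 TPM in Saline + CTRL, 60.6, 64.1 and 49.9 TPM in Saline + MG-REP, 18.96, 16.7 and 13.6 TPM in MIA + CTRL and 24.7, 29.8 and 20.8 TPM in MIA + MG-REP.

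Cxcr4, the receptor of Cxcl12, had 35.6, 43.5 and 58.3 TPM in Saline + CTRL and 298, 382 and 389 TPM in Saline + MG-REP, 7.79 times higher (log2 fold change 2.95, SE 0.30, adjusted p = 5.68e-08). MIA + CTRL had 37.1, 41.2 and 57.97 TPM and MIA + MG-REP 40.2, 41.2 and 33.7 TPM of Cxcr4, which overlapped, and the effects of MG-REP differed (difference -3.17, SE 0.42, adjusted p = 1.83e-05). Saline offspring had 117, 96.8 and 80.97 TPM at E17, 350.3, 146 and 152 TPM at P7 and 61.7, 68.5 and 157 TPM at P20 of Cxcr4. MIA offspring had 96.7, 123 and 98.96 TPM at E17, 147, 122 and 187 TPM at P7 and 69.3, 58.4 and 68.1 TPM at P20. Cxcr4 fell from P7 to P20 by 1.17 in Saline offspring, where P20 library 3 overlapped the P7 libraries, and by 1.19 in MIA offspring, where they were apart.

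Cxcr2, the neutrophil receptor of Cxcl1, Cxcl2 and Cxcl3, was highest in the embryo. In Saline offspring Cxcr2 had 20.5, 30.3 and 26.7 TPM at E17, 7.16, 7.6 and 6.52 TPM at P7 and 1.65, 2.11 and 6.3 TPM at P20. MIA offspring had 14.98, 28.6 and 21.7 TPM at E17, 6.31, 8.33 and 6.29 TPM at P7 and 1.03, 0.99 and 0.98 TPM at P20 of Cxcr2. It fell from P7 to P20 in MIA offspring (log2 fold change -1.99, SE 0.54, adjusted p = 0.00574), and not past the threshold in Saline offspring (log2 change -1.04, adjusted p = 0.137). The 12 measured markers of monocytes and neutrophils summed to 954, 1077 and 1231 TPM in E17 Saline, 506, 620.5 and 239.6 TPM in P7 Saline and 257, 669 and 321 TPM in P20 Saline. At P60 Cxcr2 had 2.74, 1.99 and 7.03 TPM in Saline + CTRL, 2.48, 4.11 and 3.76 TPM in MIA + CTRL, 0.47, 13.9 and 1.17 TPM in Saline + MG-REP and 1.9, 3.94 and 2.47 TPM in MIA + MG-REP. The library with 13.9 TPM was the one with the most neutrophil markers, S100a8 among them (15.2, 2754 and 177 TPM in Saline + MG-REP). The ligands Cxcl1, Cxcl2 and Cxcl3 were highest in library 1, which had the lowest sum of these markers. Their rises with MG-REP were also called without library 2. Of the 12 markers 1 rose with MG-REP in Saline offspring and 1 fell, against 11.9% and 14.9% of all transcripts. The one that rose was Ccr2 (log2 fold change 1.57, SE 0.28, adjusted p = 1.66e-04). The part of monocytes and neutrophils in the levels of Cxcr2 and of these ligands was not tested.

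Cxcr3 had 3.28, 4.62 and 5.57 TPM at E17, 6.2, 11 and 10.04 TPM at P7 and 3.72, 4.51 and 2.49 TPM at P20 in Saline and 1.48, 4.65 and 2.67 TPM at E17, 12.4, 11.2 and 4.84 TPM at P7 and 3.91, 3.93 and 3.72 TPM at P20 in MIA offspring, and fell from P7 to P20 in both, by 1.13 and 1.02. It rose from E17 to P7 in MIA offspring (log2 fold change 1.41, SE 0.29, adjusted p = 0.0102), but not without E17 library 1, P7 library 1 or P7 library 2 (adjusted p of 0.063 to 0.075). At P60 Cxcr3 had 4.99, 4.62 and 5.13 TPM in Saline + CTRL and 2.08, 2.03 and 2.55 TPM in Saline + MG-REP, a fall of 0.88 that did not overlap but was lost without 5 of the 6 libraries in turn (adjusted p of 0.0511 to 0.0869), with a Xist covariate and with median-ratio scaling. Cxcr6, the receptor of Cxcl16, rose from P7 to P20 in both kinds of offspring, from 0.97, 0.87 and 0.49 to 2.16, 1.92 and 3.02 TPM in Saline and from 0.95, 0.71 and 1.87 to 4.43, 2.61 and 1.45 TPM in MIA offspring, where the call was lost without P7 library 1, P7 library 2 or P20 library 1 (adjusted p of 0.0564 to 0.148). Cxcr5 had group means of 0.54 to 2.07 TPM and passed the threshold nowhere. Xcr1, a marker of cross-presenting dendritic cells, had group means of 0.203 to 0.57 TPM and fell from P7 to P20 in MIA offspring by 0.33, a call lost without 3 of the 6 libraries in turn.

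Of the atypical receptors, Ccrl2, which presents the attractant chemerin and carries no signal itself, was called in both its transcripts, whose shared reads cannot be told apart. NM_017466 of Ccrl2 had 5.7, 6.01 and 4.56 TPM at E17, 13.7, 12.2 and 14.1 TPM at P7 and 29.96, 48.9 and 63.3 TPM at P20 in Saline and 2.71, 7.86 and 2.85 TPM at E17, 10.3, 9.32 and 7.22 TPM at P7 and 47.3, 48.5 and 33.3 TPM at P20 in MIA offspring. It rose from E17 to P7 in Saline offspring (log2 fold change 1.16, SE 0.26, adjusted p = 0.0101; adjusted p = 0.0594 without E17 library 3) and from P7 to P20 in Saline (log2 fold change 1.70, SE 0.26, adjusted p = 1.92e-05) and MIA offspring (log2 fold change 2.14, SE 0.26, adjusted p = 8.41e-07). Its rise of 0.97 from E17 to P7 in MIA offspring was lost without 4 of the 6 libraries in turn. At P60 NM_017466 of Ccrl2 had 29.8, 23.7 and 30.8 TPM in Saline + CTRL, 24.1, 24.2 and 25.9 TPM in MIA + CTRL, 57.4, 55.1 and 62.9 TPM in Saline + MG-REP and 49.7, 58.1 and 45.4 TPM in MIA + MG-REP. It rose in repopulated Saline microglia by 1.04 and was 2.06 times higher in repopulated MIA microglia, without overlap and at an adjusted p of 0.0904. NM_001302376 of Ccrl2 rose by 1.38 in Saline offspring, from 17.8, 18.5 and 19.1 TPM to 43.1, 54.1 and 52.1 TPM. From E17 to P7 it rose in Saline (log2 fold change 1.22, SE 0.28, adjusted p = 0.0136) and MIA offspring (log2 fold change 1.13, SE 0.28, adjusted p = 0.0308), and from P7 to P20 by 1.02 and 1.24. Of these 4 calls, that from P7 to P20 in MIA offspring held whichever library was left out. It fell from P20 to P60 in Saline offspring (log2 fold change -1.08, SE 0.28, adjusted p = 0.0345), a call lost with a Xist covariate and without 5 of the 6 libraries in turn. The difference between both effects of MG-REP was -0.03 for NM_017466 of Ccrl2, with a 95% interval of -0.78 to 0.72. Ackr1, an atypical receptor of red cells and venules, had group means of 3.03 to 21.0 TPM, with 5.91, 10.5 and 9.02 TPM in Saline + CTRL, 1.86, 5.88 and 6.14 TPM in Saline + MG-REP, 7.38, 10.1 and 9.89 TPM in MIA + CTRL and 3.62, 1.69 and 3.77 TPM in MIA + MG-REP. Neither Ackr1 nor Ackr4 passed the threshold anywhere.

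**Figure D5:**
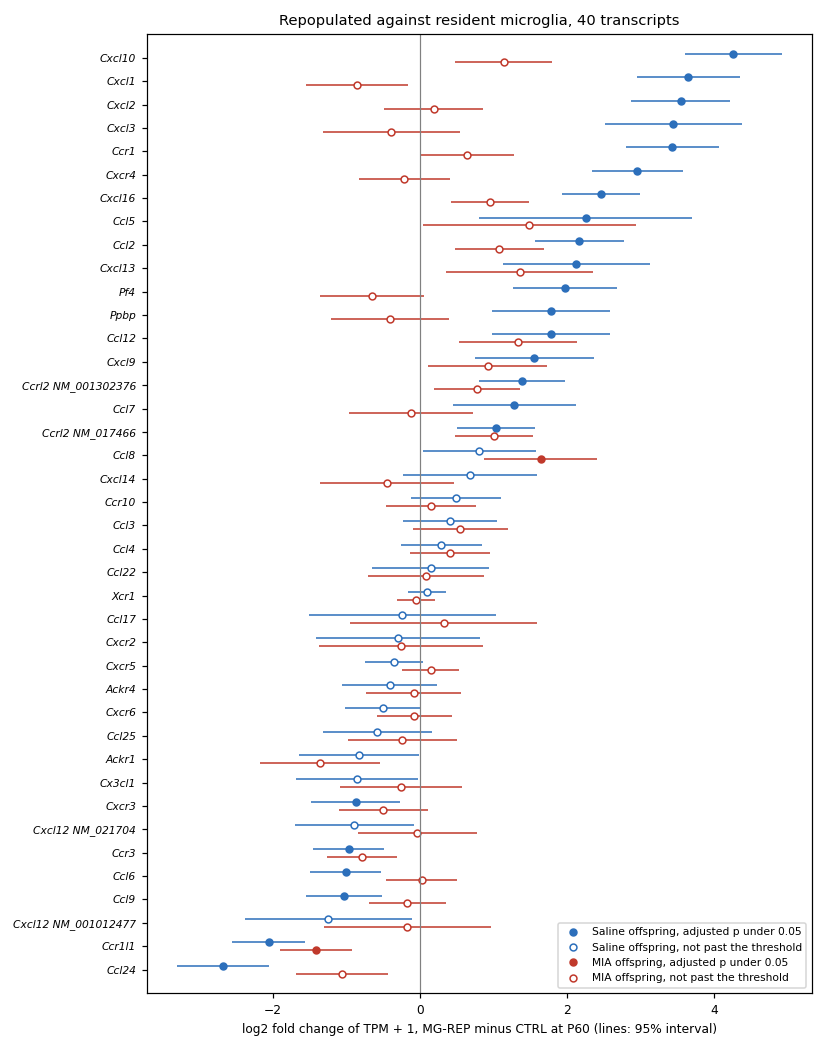
Log2 fold change of TPM + 1 with MG-REP at P60 (x axis) for 40 of the transcripts (y axis), in Saline (blue) and MIA offspring (red), with the 95% interval as a line and filled symbols for an adjusted p under 0.05. In Saline offspring 23 symbols are filled, from Cxcl10 at 4.26 to Ccl24 at -2.68, and in MIA offspring those of Ccl8 and Ccr1l1.

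MIA and Saline offspring of the same age and chow were compared next, for an effect of the maternal treatment on these transcripts. None of the 41 passed the adjusted threshold in limma's test at E17, P7, P20 or P60 on control chow, and neither did any of the 14225 transcripts (0% at each age). At an unadjusted p under 0.05 there were 6 members at E17, against 4.11% of all transcripts, 1 at P7, against 2.36%, 6 at P20, against 3.21%, and 3 at P60, against 1.8%. At E17 the median log2 difference of the 41 was -0.30, and that of all transcripts was 0.10. Ccl2 at E17 had 187, 340.4 and 182 TPM in MIA and 350.2, 398 and 433 TPM in Saline offspring, which did not overlap (unadjusted p = 0.0126, adjusted p = 0.754). E17 MIA libraries 1 and 3 were low and library 2 was nearer to the Saline libraries, for Ccl2 as for Ccl3, Ccl4 and Ccl7. Microglial markers moved with them, at 16514, 28001 and 20137 TPM in E17 MIA and 22671, 28737 and 27090.4 TPM in E17 Saline, while the choroid plexus markers reached 12374 TPM in E17 MIA library 3. Their part in the difference was not tested.
At P20 Cxcl1 had 27.6, 26.7 and 38.6 TPM in MIA and 38.8, 60 and 68.4 TPM in Saline offspring, without overlap, at an unadjusted p of 0.0247. At P60 on control chow Ccl2 was again the member with the smallest p, with MIA libraries all below Saline ones at an unadjusted p of 0.00919 and an adjusted p of 1. The steps between ages did not differ between MIA and Saline offspring past the threshold either, with 0 of 41 members and 0% of all transcripts for each step. At an unadjusted p under 0.05, 1 member differed at each, against 1.93% of all transcripts from E17 to P7, 3.18% from P7 to P20 and 3.33% from P20 to P60.

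Neighbouring genes were described together, since 25 of the 39 genes lie within 250 kb of another member. On chromosome 5 all 5 members between Ppbp and Cxcl2 rose with MG-REP in Saline offspring, with a negative difference between both effects of MG-REP for all 5, and 4 of the 5 fell from P7 to P20 in Saline offspring. Of all transcripts, 11.9% rose and 14.9% fell with MG-REP in Saline offspring, and 6.09% had a negative difference. From P7 to P20 in Saline offspring 16.1% of them rose and 20.1% fell. Runs of neighbours were not counted over all transcripts. Cxcl9 and Cxcl10, further along (92321331 to 92348889), both rose with MG-REP. On chromosome 11, 3 of the 4 members between Ccl2 and Ccl8 rose, whereas between Ccl5 and Ccl4 1 rose and 2 fell. Among the receptor genes on chromosome 9, Ccr1 rose and Ccr1l1 and Ccr3 fell with MG-REP in Saline offspring. On chromosome 8, Ccl22 and Ccl17 rose at P20 and Cx3cl1 between them did not pass the threshold.

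Genes of the machinery downstream of the receptors were described by the same test. Of 34 transcripts of 31 genes, 8 rose and 2 fell with MG-REP in Saline offspring, against 11.9% and 14.9% of all transcripts. In MIA offspring 0 passed the threshold. Their median log2 change in Saline offspring was 0.07, beside -0.14 over all transcripts. The largest rises were of Rgs18 (log2 fold change 1.62, SE 0.38, adjusted p = 0.00244) and Rgs1 (log2 fold change 1.30, SE 0.32, adjusted p = 0.00386), which switch off G proteins, and the falls were of Pik3r5 (log2 fold change -1.04, SE 0.19, adjusted p = 1.98e-04), a regulatory subunit of PI3K gamma, and Prex1 (log2 fold change -0.48, SE 0.10, adjusted p = 6.35e-04), an exchange factor of Rac. From P7 to P20 in Saline offspring 11 rose and 7 fell, against 16.1% and 20.1% of all transcripts, with the largest rises of Rgs1 (log2 fold change 2.54, SE 0.32, adjusted p = 1.96e-06) and Pik3r5 (log2 fold change 1.27, SE 0.19, adjusted p = 1.64e-05) and the largest falls of Rac2 (log2 fold change -0.995, SE 0.21, adjusted p = 7.94e-04) and Gng5 (log2 fold change -0.61, SE 0.10, adjusted p = 4.38e-05).
Early-response genes, which stimuli and the isolation of cells can switch on together with Ccl3, Ccl4 and Cxcl2, were listed too. Of 13 measured, 0 rose and 9 fell with MG-REP in Saline offspring, against 11.9% and 14.9% of all transcripts, Jun (log2 fold change -1.76, SE 0.26, adjusted p = 1.72e-05) and Egr1 (log2 fold change -1.66, SE 0.26, adjusted p = 3.33e-05) the most, and 0 passed in MIA offspring. Their summed level was 41961, 41943 and 55959 TPM in Saline + CTRL, 20180.3, 27616 and 26798 TPM in Saline + MG-REP, 30927, 49495 and 48124 TPM in MIA + CTRL and 36662, 44527 and 33271 TPM in MIA + MG-REP. Microglial markers also fell with MG-REP in Saline offspring, 7 of 8 of them, from summed levels of 42452, 35859 and 51828 TPM to 24949, 28543 and 28059.8 TPM. In MIA offspring 0 of the 8 passed, at 30124, 42791 and 45685 TPM in MIA + CTRL and 39931, 44466 and 40223 TPM in MIA + MG-REP. With a Xist covariate 14 members rose and 7 fell with MG-REP in Saline offspring, against 8.62% and 12.9% of all transcripts in that fit. Without Saline + MG-REP library 2, the one with the neutrophil markers, 22 members were called, against 26.2% of all transcripts.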

How the data were processed

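RNA of microglia isolated with CD11B beads was sequenced in 30 libraries. As the methods give it, poly(A) RNA went into libraries that keep no strand, single-end reads were mapped to mm10 by Rsubread, and featureCounts assigned them to UCSC gene models. Genes had to reach a minimum CPM in at least 3 libraries. The authors deposited TPM made from these reads. Their formula and the tool versions are not given in the sources used here. The authors' module label of each transcript was made from these same libraries and was used in no test. Every one of the 30 columns matched a sample, and each group came from the labels. Because the deposited values are TPM and not counts, the count model of the study could not be fitted.

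To estimate depth, the smallest steps in TPM times transcript length were read as 1 read (14005 transcripts, 98.5%). In each library 73.3% to 80.1% of these low values lay within 0.2 of a whole read, where evenly spread values give 40%. In R 4.3.3, limma 3.58.1 was fitted to log2(TPM + 1) of all 14225 transcripts, with 10 groups in 1 model, a mean-variance trend and 16 contrasts. P-values are two-sided and were adjusted by the Benjamini-Hochberg method. The fit was tested on simulated data. Other settings tried were median-ratio scaling, a smaller pseudocount (0.1), transcripts with a mean of 1 TPM or more (12644 of them), a block for the replicate number, a log2 Xist covariate, a fit of the compared groups alone, and each library left out in turn. Deviations of same-numbered libraries correlated at over 0.1 in every pair only between MIA and Saline at P20 (0.24, 0.10 and 0.13). There the block left 0 members called.

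Values per library are given for members with a group mean of at least 10 TPM or with a call whose groups do not overlap. Full statistics are given for at most 8 members per contrast, those with the largest called changes. Of the other lists, the 2 largest rises and falls are named. Of the 41 transcripts, 1 is in the counts and sums and is not reported here by name. Members and lists were chosen with earlier results of these data known. Genomic positions and promoters are from RefSeq on GRCm38.p6, which matched all 41 transcripts. Exons of 6 members overlap another gene of GENCODE vM21, and near-identical paralogs can share short reads. Plots were made in Python 3.11.15 (matplotlib 3.10.9).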

Additional observations from a re-analysis of the deposited data

Results flagged for a closer look

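The effect of MG-REP at P60 differed between MIA and Saline offspring for 11 of the 41 transcripts, by the test of the difference itself in limma (MG-REP minus CTRL in MIA offspring, minus the same in Saline offspring, on log2(TPM + 1), adjusted over all transcripts). For 9 of them the effect was lower in MIA offspring. The differences were -4.50 for Cxcl1, -3.84 for Cxcl3, -3.36 for Cxcl2, -3.17 for Cxcr4, -3.12 for Cxcl10, -2.79 for Ccr1, -2.62 for Pf4, -2.19 for Ppbp and -1.51 for Cxcl16. For Ccl24 the difference was 1.62 and for Ccl6 it was 1.03. In all 9 negative ones the 3 Saline + MG-REP libraries were above the 3 Saline + CTRL libraries. The 2 positive ones were lost when a single library was left out, Ccl24 without Saline + CTRL library 1 (1.36, adjusted p = 0.0556) or MIA + MG-REP library 2 (1.45, adjusted p = 0.0518) and Ccl6 without any of 9 libraries (0.89 to 1.06, adjusted p of 0.0718 to 0.147). The difference of Ppbp was not called with a pseudocount of 0.1 or in a fit of only the groups compared. Groups of 3 libraries are too small for a test of single outlying samples.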

How the results depend on the processing

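The number of members called stayed within 1.5 times under most settings. From P20 to P60 in Saline offspring 4 were called, and 1 with median-ratio scaling, 0 with a Xist covariate and 0 in a fit of only the groups compared. From E17 to P7 in MIA offspring 10 were called, 5 with median-ratio scaling and 0 in a fit of only the groups compared. From P20 to P60 in MIA offspring 6 were called, and 0 with a Xist covariate. With MG-REP in MIA offspring 2 were called, 0 with a pseudocount of 0.1, 0 with a Xist covariate and 5 in a fit of only the groups compared. The cause was not tested. Leaving out 1 library gave 4 to 9 calls from E17 to P7 in Saline offspring (4 without E17 Saline library 3), 3 to 10 in MIA offspring (3 without E17 MIA library 3 or P7 MIA library 1), 1 to 7 and 2 to 4 from P20 to P60 in Saline and MIA offspring (1 without P20 Saline library 2 or 3 or Saline + CTRL library 2 or 3, 7 without P20 Saline library 1, and 2 without P20 MIA library 2 or 3 or MIA + CTRL library 2), 19 to 22 and 21 to 25 from P7 to P20, 21 to 22 with MG-REP in Saline offspring, 1 with MG-REP in MIA offspring whichever library was left out, and 9 to 12 for the difference. No named change reversed. With the replicate number as a block, 25 members were called with MG-REP in Saline offspring, 2 in MIA offspring and 10 for the difference, and no count moved by over 1.5 times. Apart from MIA and Saline at P20, same-numbered libraries were not shown to be pairs. Each library correlated best with its own number in 1 other comparison, P60 with P20 in MIA offspring, where 5 members were called with the block. Depth limits the transcripts near 1 TPM most, Xcr1, Ackr4 and Cxcl13 among them.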
